A study of Mus musculus with 8 samples.

Results

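The 8 genes Casp1, Casp4, Casp8, Ripk1, Ripk3, Mlkl, Fas and Daxx, which act in inflammatory and programmed cell death, were followed across 4 groups of mouse embryonic fibroblasts. Casp1 and Casp4 encode the inflammatory caspases, Casp8, Ripk1, Ripk3 and Mlkl act in extrinsic apoptosis and necroptosis, Fas is a death receptor gene, and the Daxx protein was first described as a Fas partner. They were taken by gene name from the table of non-normalized array intensity, with every probe kept. The 8 genes have 14 of the 25697 probes, among 17891 gene names. All 14 probes passed the detection filter (a detection p under 0.05 in 2 or more of the 8 arrays), which left 9554 genes to test.

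Caspase-1 is switched on inside inflammasomes, and mouse caspase-4 binds bacterial lipopolysaccharide in the cytosol. Both cut gasdermin D, whose fragments open pores in the plasma membrane, a lytic death called pyroptosis. Caspase-8 is recruited below death receptors such as Fas and starts apoptosis. Where its activity is low, the kinases RIPK1 and RIPK3 assemble and RIPK3 phosphorylates MLKL, which then ruptures the membrane in necroptosis. TRIF, the product of Ticam1, carries a motif that binds RIPK1 and RIPK3 and links Toll-like receptors to interferon and to death. Casp1, Casp4, Mlkl, Fas and Daxx are known as genes that interferons can induce.

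The groups were Ticam1 knockout cells given c-di-GMP, knockout cells given DMSO, wild-type cells given c-di-GMP and wild-type cells given DMSO, with 2 arrays each (the study's title gives TICAM1 and the genotype label TICAM). c-di-GMP, a bacterial cyclic dinucleotide that mammalian cells sense through STING, was transfected with lipofectamine at 8 µg/ml for 30 min. DMSO cells had the same volume of vehicle, all cells grew in 10% serum, and RNA was taken 4 h after transfection. The labels name neither the strain nor the number of embryos or cell lines behind a genotype, so the effect of the deletion and a difference between cell lines cannot be told apart. Nor do they say that replicates were separate cultures, so each p-value reflects the spread of these 8 arrays, and that spread could be technical.

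One array stood apart. KO DMSO replicate 2 had 6468 detected probes, against 11254 to 11657 on the other 7 arrays, its mean signal was 225.9, against 252.6 to 648.9, and it correlated with its replicate at 0.833, against 0.984 to 0.993 in the other groups. Results are therefore given with and without it; leaving it out makes KO DMSO a single array, whose spread is then taken from the other groups. Ticam1 itself read near background in both genotypes: its probe was detected on 2 of 4 knockout and 1 of 4 wild-type arrays. The place of that probe in the gene, inside or outside the deletion, is not known here, so it checks no label. Of 13 fibroblast markers on the array, 10 to 13 were detected on every knockout array and 13 on every wild-type array; under c-di-GMP, 3 of them were called higher and 3 lower in knockout cells, and 5 and 5 without KO DMSO replicate 2. Leukocyte markers differed between the genotypes: 2 to 5 of 19 were detected on knockout arrays, against 12 to 13 of 19 on wild-type arrays, with summed signals of 806.1 to 1674 against 10162 to 13609. The 1674 is that of KO DMSO replicate 2. Lyz1 was the brightest of these markers on wild-type arrays (log2 intensity 12.47 to 12.97), so the wild-type sums weigh it most. Lyz1, Lyz2, Adgre1, Cd52 and Laptm5 were detected on 0 knockout arrays and on all 4 wild-type arrays, while Ptprc, Itgam, Fcgr1 and Spi1 were detected on 0 of the 8. Cd14, Cd3e and Cd53 were each detected on 3 of 4 knockout arrays. Cd14 read 7.92 and 7.90 in knockout cells given c-di-GMP and 8.10 and 6.31 in those given DMSO, against 6.60 to 7.21 on wild-type arrays. In bulk RNA, fewer cells of a type and less RNA per cell cannot be told apart. The part of these markers in the differences between genotypes below was not tested.

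The inflammatory caspase genes read highest in the wild-type cells given c-di-GMP. Casp1 had a normalized log2 intensity of 4.72 and 4.67 in knockout cells given c-di-GMP, against 4.71 and 6.32 in those given DMSO. In wild-type cells it was 8.90 and 9.01 after c-di-GMP, against 7.01 and 7.17 after DMSO. Casp1 was thus detected on 0 of the 4 knockout arrays (detection p of 0.12 to 0.62) and on all 4 wild-type arrays (detection p of 0 to 0.00125), a pattern found in 2.81% of the genes tested. It passed the detection filter through the wild-type arrays alone, so this pattern adds no separate support to the genotype differences below. The highest of the knockout readings, 6.32, came from KO DMSO replicate 2 and lies below the lowest detected signal of that array, 7.53.

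Casp4 read higher after c-di-GMP in wild-type cells with each of its 3 probes. Its tested probe read 6.67 and 6.64 in knockout cells given c-di-GMP, against 6.65 and 7.22 in those given DMSO, and 3 of these 4 arrays passed detection. The wild-type arrays read 10.46 and 10.45 after c-di-GMP, against 8.41 and 7.70 after DMSO, so that the treatments did not overlap there. On the linear scale of the authors' deposited normalized intensity, the 3 detected knockout arrays lie between 203.6 and 205.8, while wild-type cells had 1514.2 and 1500.8 after c-di-GMP, against 444.3 and 312.4 after DMSO. The knockout array that was not detected, 7.22 on the log2 scale, is again KO DMSO replicate 2.

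**Figure D1:**
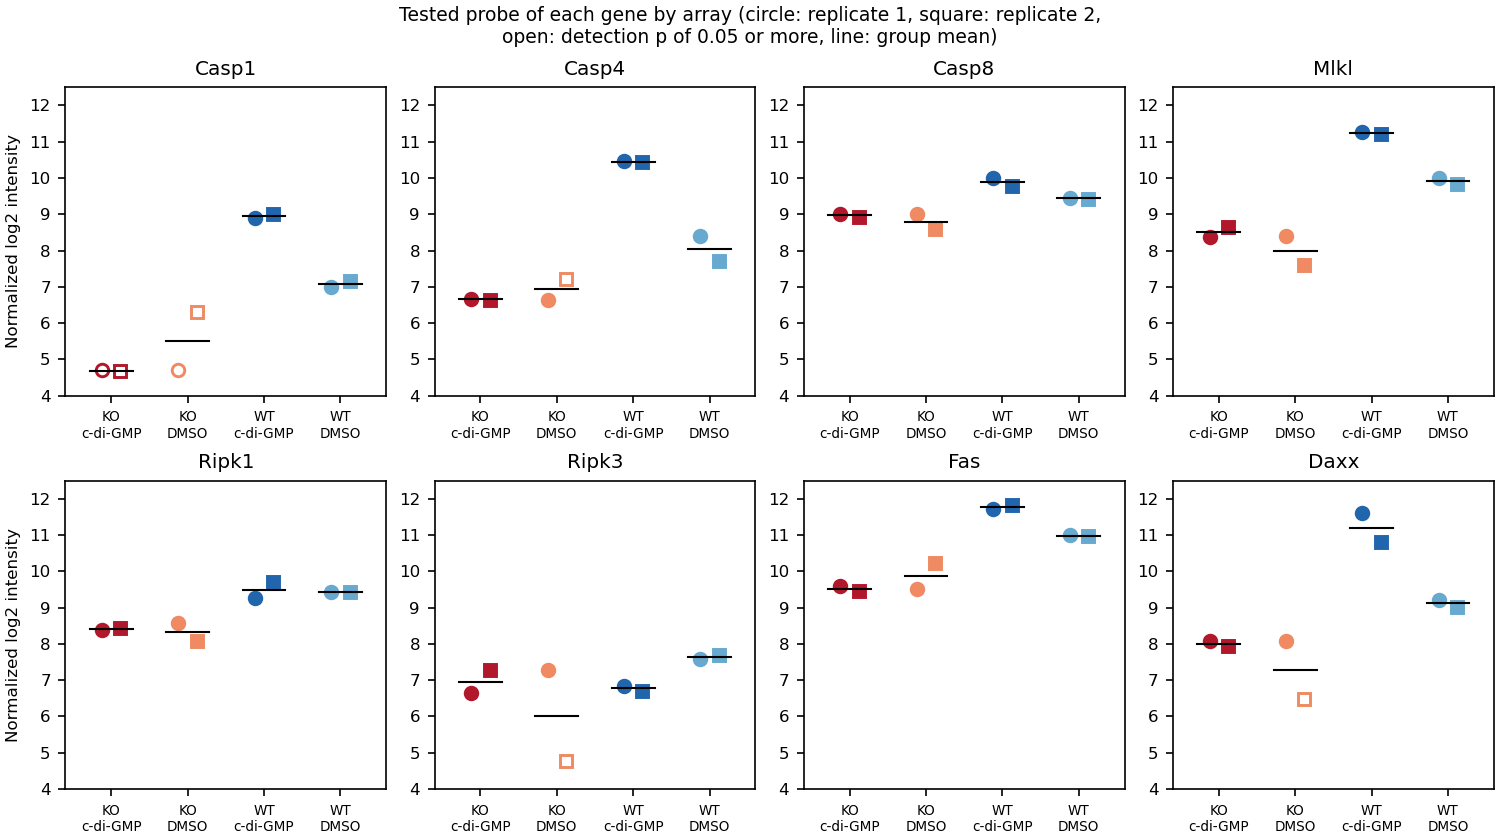
Normalized log2 intensity (y axis) of the tested probe of each gene on each array, by group (x axis). Circles are replicate 1, squares replicate 2, open symbols a detection p of 0.05 or more, and bars the group means. In wild-type cells, both c-di-GMP arrays lie above both DMSO arrays for Casp1, Casp4, Casp8, Mlkl, Fas and Daxx, and the open symbols are all from knockout cells.

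Neither caspase gene gave a knockout response that passed. Casp4 had a knockout log2 difference, c-di-GMP minus DMSO, of -0.28 ± 0.34 with all arrays (SE, n = 2 arrays per group, limma, adjusted p = 0.651) and of 0.01 ± 0.29 without KO DMSO replicate 2 (95% interval -0.68 to 0.70). Casp1 was below detection in both knockout groups, so no fold is given for it. In wild-type cells, Casp4 rose 5.28-fold with c-di-GMP (log2 difference 2.40 ± 0.34, adjusted p = 0.0433). It was the only one of the 8 genes to pass with all arrays, where 0.586% of all genes tested were called higher and 0.0105% lower. Casp1 had a log2 difference of 1.87 ± 0.50 in the same comparison (adjusted p = 0.309). With KO DMSO replicate 2 left out, the wild-type estimates stayed where they were and the shared estimate of the spread became smaller, so that both passed (Casp1 1.87 ± 0.16, adjusted p = 0.00143; Casp4 2.40 ± 0.24, adjusted p = 0.0023). The Casp4 call with all arrays rested on each of 6 arrays: its adjusted p was 0.169 without either KO c-di-GMP array, 0.412 and 0.363 without WT c-di-GMP replicate 1 or 2, and 0.241 and 0.48 without WT DMSO replicate 1 or 2.

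The knockout response minus the wild-type response was -2.68 ± 0.48 for Casp4 (adjusted p = 0.231) and -2.69 ± 0.70 for Casp1 (adjusted p = 0.595) with all arrays. After KO DMSO replicate 2 was left out it was -2.39 ± 0.38 for Casp4 (adjusted p = 0.0461) and -1.88 ± 0.25 for Casp1 (adjusted p = 0.0287), and both passed. When that array was also kept out of the normalization, Casp1 passed (-1.92, adjusted p = 0.0349) and Casp4 did not. The knockout side of the Casp1 value is below detection, so its size is not a measured fold. Without KO DMSO replicate 2 its knockout response was -0.01 and its wild-type response 1.87. In that fit the Casp1 difference thus restates the wild-type response and does not show whether knockout cells responded.

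Under c-di-GMP, the caspase genes had the largest fitted differences between genotypes among the 8. Casp4 was 13.9-fold lower in knockout cells than in wild-type cells (log2 difference -3.80 ± 0.34, adjusted p = 0.00079). Casp1, which was not detected in knockout cells, was at least 11.8-fold lower (adjusted p = 0.00234). Where a gene was undetected throughout a group, only such a bound can be given, set by the lowest detected signal or by its own signal if higher. Such a gene passed the detection filter only through arrays of other groups. Under DMSO, neither passed with all arrays: Casp4 differed by -1.12 ± 0.34 (adjusted p = 0.0789), and Casp1 was at least 1.56-fold lower (adjusted p = 0.0877). Without KO DMSO replicate 2, Casp4 differed by -1.41, and the fitted difference of Casp1 was -2.38. Casp1 was not detected on the remaining KO DMSO array, so its value is not a measured fold.

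Further probes of Casp4 went the same way in wild-type cells with different sizes. Probe ILMN_2811737 read 5.62 and 5.89 in knockout cells given c-di-GMP, against 5.77 and 5.69 in those given DMSO, a difference of 0.03 ± 0.27. In wild-type cells it read 10.21 and 10.53 after c-di-GMP, against 8.43 and 8.58 after DMSO. It rose there by 1.87 ± 0.27 (adjusted p = 0.0474 over every detected probe, of which 0.53% were called higher and 0.00768% lower). Under DMSO its log2 difference between knockout and wild-type cells was -2.78 ± 0.27 (adjusted p = 0.00164), where the tested probe gave -1.12. The remaining Casp4 probe, ILMN_2811746, gave -0.30 ± 0.36 under DMSO (adjusted p = 0.606), with groups that overlapped. Without KO DMSO replicate 2 that probe gave 0.05. Probe ILMN_2811746 was dim, at 7.30 and 7.82 in wild-type cells after c-di-GMP, against 5.89 and 5.37 after DMSO, and its difference of 1.94 ± 0.36 passed only without KO DMSO replicate 2 (adjusted p = 0.115 with that array; 1.94 ± 0.25, adjusted p = 0.00668, without it). In that fit the difference of responses of these 2 probes fell short (adjusted p = 0.0548 and 0.0536).

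**Figure D2:**
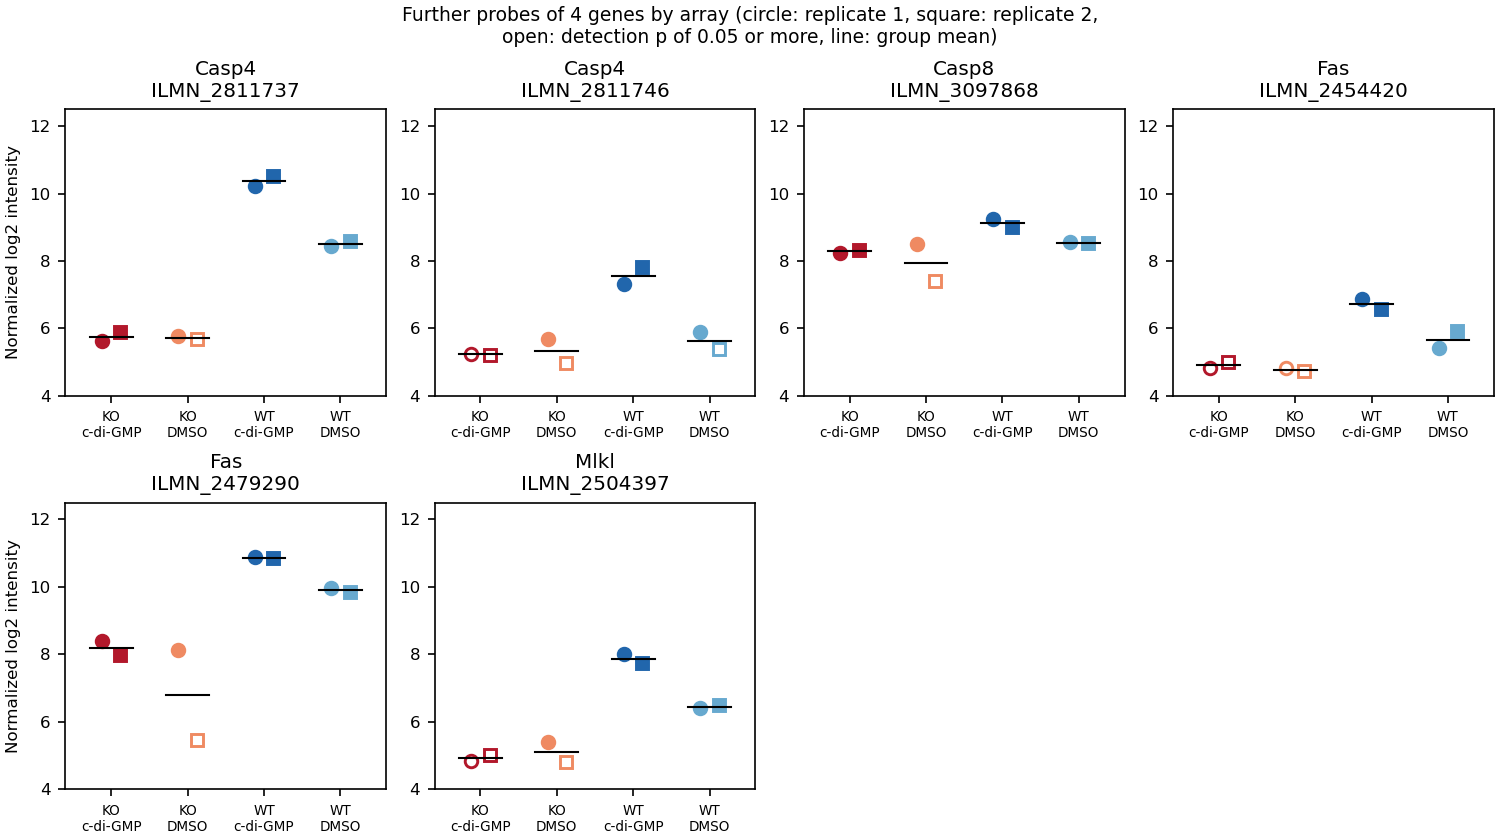
Normalized log2 intensity (y axis) of the 6 further probes of Casp4, Casp8, Fas and Mlkl by group (x axis), with symbols as for the tested probes. The wild-type c-di-GMP arrays are the highest for every probe, and the second KO DMSO array is open, that is not detected, in all 6 panels.

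Casp1 and Casp4 are neighbouring protein-coding genes on chromosome 9, with Casp12 next to Casp4 (RefSeq, GRCm38.p6). Their upstream windows are shown because the pair had the largest genotype differences of the 8 under c-di-GMP and because only one of them holds a match to the NF-kB element. Each window is the 250 bases before the annotated start, on the plus strand, 5′ to 3′, with matches in capitals.
Casp1, chr9:5298267-5298516: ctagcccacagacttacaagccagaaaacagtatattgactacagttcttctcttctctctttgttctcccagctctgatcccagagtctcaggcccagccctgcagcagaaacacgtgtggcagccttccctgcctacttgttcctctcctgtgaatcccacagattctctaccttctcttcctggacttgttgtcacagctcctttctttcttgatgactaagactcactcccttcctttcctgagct
Casp4, chr9:5308599-5308848: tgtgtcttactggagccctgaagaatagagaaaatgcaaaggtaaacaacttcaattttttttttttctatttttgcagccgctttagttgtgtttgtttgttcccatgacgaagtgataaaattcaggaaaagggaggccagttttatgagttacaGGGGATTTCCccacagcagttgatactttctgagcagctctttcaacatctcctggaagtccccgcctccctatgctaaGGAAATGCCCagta
The capitals in Casp4 mark 2 matches to the NF-kB element, searched on both strands as GGG, 2 bases of any kind and TTTCC. They begin 93 and 14 bases before the start, and 1.41% of the 32851 RefSeq windows of this length hold this motif. The Casp1 window held no match to it, nor to the interferon-stimulated response element (GAAA repeated after 2 bases of any kind, 2.98% of windows), the shorter GAAANGAAA (2.68%) or the gamma-activated sequence TTCNNNGAA (7.02%). A match describes letters in a window and no more.

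Mlkl, whose product carries out necroptosis, read lower on every knockout array than on any wild-type array, and highest in wild-type cells given c-di-GMP. Its tested probe read 8.38 and 8.64 in knockout cells given c-di-GMP, against 8.41 and 7.59 in those given DMSO. The wild-type arrays read 11.27 and 11.21 after c-di-GMP, against 9.99 and 9.84 after DMSO. All 8 arrays passed detection, and the treatments overlapped in knockout cells only. The knockout response was 0.51 ± 0.33 with all arrays (adjusted p = 0.529) and 0.10 ± 0.21 without KO DMSO replicate 2. The wild-type difference was 1.33 ± 0.33, a 2.51-fold ratio, which did not pass with all arrays (adjusted p = 0.261) and passed without that array (1.33 ± 0.17, adjusted p = 0.00664).

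The difference of responses did not pass for the tested Mlkl probe in either fit (-0.81 ± 0.47, adjusted p = 0.711; -1.22 ± 0.27 without that array, adjusted p = 0.132). Mlkl was lower in knockout than in wild-type cells under both conditions. Under c-di-GMP it was 6.63-fold lower (-2.73 ± 0.33, adjusted p = 0.00273), and under DMSO 3.77-fold lower (-1.91 ± 0.33, adjusted p = 0.0133). The DMSO call was lost without WT DMSO replicate 1 or 2 (adjusted p = 0.119 and 0.105) and held without KO DMSO replicate 2 (-1.51 ± 0.21, adjusted p = 0.00237). The dimmer probe ILMN_2504397 was detected on 1 of 4 knockout and all 4 wild-type arrays. It was called lower in knockout cells under c-di-GMP (at least 5.55-fold, adjusted p = 0.00149) and under DMSO (-1.34 ± 0.30, adjusted p = 0.0356). Its difference of responses passed without KO DMSO replicate 2 (-1.89 ± 0.29, adjusted p = 0.0457), with knockout c-di-GMP arrays that were not detected.

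Casp8, the initiator caspase gene, varied less. Its tested probe read 9.02 and 8.93 in knockout cells given c-di-GMP, against 9.0 and 8.59 in those given DMSO. In wild-type cells it read 9.99 and 9.79 after c-di-GMP, against 9.44 and 9.43 after DMSO. The genotypes did not overlap, and the treatments did only in knockout cells. The wild-type difference of 0.46 ± 0.26 did not pass with all arrays (adjusted p = 0.95) or without KO DMSO replicate 2 (0.46 ± 0.16, adjusted p = 0.168). Under c-di-GMP the knockout minus wild-type difference of -0.92 ± 0.26 fell short with all arrays (adjusted p = 0.0653) and passed without that array (adjusted p = 0.00358). Under DMSO it was -0.64 ± 0.26 (adjusted p = 0.155). The other probe, ILMN_3097868, gave 0.60 ± 0.39 for the wild-type response and -0.86 ± 0.39 between genotypes under c-di-GMP, neither of which passed with all arrays. After KO DMSO replicate 2 was left out, this probe passed between genotypes under c-di-GMP (-0.86 ± 0.17, adjusted p = 0.00616) and not in the wild-type response (adjusted p = 0.107).

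The Casp8 window is shown because it is the only one among the 8 genes with the short element bound by interferon regulatory factors, GAAANGAAA. The match, in capitals, begins 109 bases before the start (RefSeq, GRCm38.p6, plus strand).
Casp8, chr1:58802252-58802501: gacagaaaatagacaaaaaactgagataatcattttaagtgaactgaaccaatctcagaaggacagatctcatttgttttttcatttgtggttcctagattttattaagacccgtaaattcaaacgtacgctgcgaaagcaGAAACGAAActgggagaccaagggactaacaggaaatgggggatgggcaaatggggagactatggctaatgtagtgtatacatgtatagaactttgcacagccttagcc

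The kinase genes took other courses. Ripk1 read 8.37 and 8.44 in knockout cells given c-di-GMP, against 8.58 and 8.08 in those given DMSO. The wild-type arrays read 9.27 and 9.70 after c-di-GMP, against 9.44 and 9.44 after DMSO. The treatments overlapped in both genotypes (wild-type difference 0.05 ± 0.29, 95% interval -0.64 to 0.74), and every knockout array lay below every wild-type array. Its genotype difference fell short of the threshold with all arrays under c-di-GMP (-1.08 ± 0.29, adjusted p = 0.0544) and under DMSO (-1.11 ± 0.29, adjusted p = 0.0529). It passed without KO DMSO replicate 2 in both (-1.08 ± 0.19, adjusted p = 0.00334; -0.86 ± 0.23, adjusted p = 0.031).

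Ripk3, the kinase gene directly upstream of MLKL, was the one of the 8 that read lower with c-di-GMP in wild-type cells. Ripk3 read 6.64 and 7.28 in knockout cells given c-di-GMP, against 7.27 and 4.77 in those given DMSO. In wild-type cells it read 6.84 and 6.70 after c-di-GMP, against 7.59 and 7.70 after DMSO. The lowest value, 4.77, was not detected and is that of KO DMSO replicate 2. The wild-type difference of -0.88 ± 0.74 did not pass with all arrays (adjusted p = 1) or without that array (-0.88 ± 0.23, adjusted p = 0.0811). Under c-di-GMP the genotypes overlapped (0.19 ± 0.74, 95% interval -1.57 to 1.95; 0.19 ± 0.23 without that array, interval -0.35 to 0.73). Under DMSO the difference between genotypes was -1.63 ± 0.74 with all arrays (adjusted p = 0.19) and -0.37 ± 0.28 without that array (adjusted p = 0.364).

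**Figure D3:**
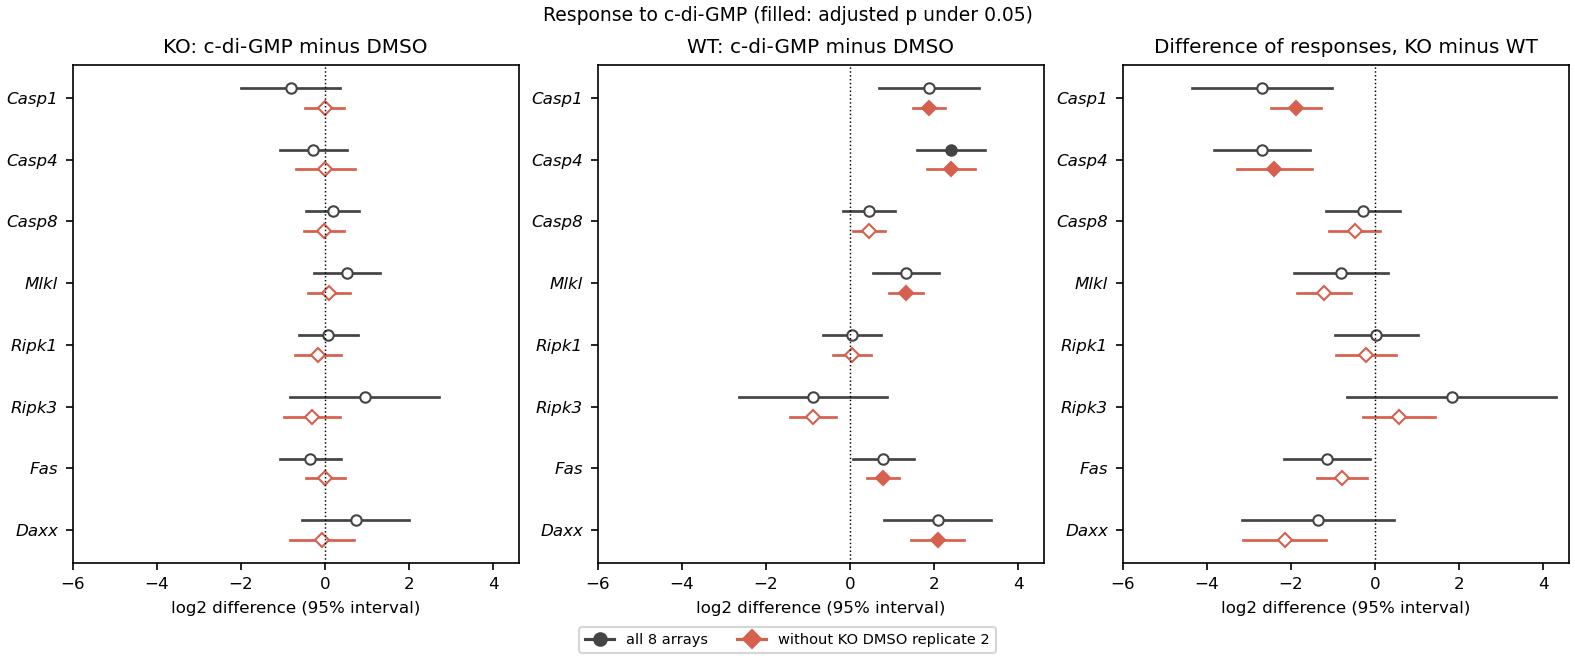
Log2 difference between c-di-GMP and DMSO in knockout cells (left) and wild-type cells (middle), and the knockout response minus the wild-type response (right), with 95% intervals on the x axis and 1 row per gene. Dark circles are fits on all 8 arrays, red diamonds fits without KO DMSO replicate 2, and filled symbols have an adjusted p under 0.05. No symbol is filled in the knockout panel, Casp4 is filled in the wild-type panel in both fits, and Casp1 and Casp4 are filled in the right panel only without that array. The knockout values of Casp1 are below detection.

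Fas, the death receptor gene, read lower in knockout than in wild-type cells. Its tested probe, ILMN_2902979, read 9.58 and 9.44 in knockout cells given c-di-GMP, against 9.51 and 10.22 in those given DMSO. The wild-type arrays read 11.70 and 11.81 after c-di-GMP, against 10.99 and 10.96 after DMSO. All arrays passed detection, and the 4 knockout values lay below the 4 wild-type values. The knockout response was -0.35 ± 0.30 (adjusted p = 0.553) and, without KO DMSO replicate 2, 0.00 ± 0.19 (adjusted p = 1). The wild-type difference of 0.79 ± 0.30, a 1.72-fold ratio, did not pass with all arrays (adjusted p = 0.657) and passed without that array (0.79 ± 0.16, adjusted p = 0.035). The difference of responses did not pass in either fit (-1.14 ± 0.43, adjusted p = 0.711; -0.78 ± 0.25, adjusted p = 0.292).

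Between genotypes under c-di-GMP, Fas was 4.75-fold lower in knockout cells (-2.25 ± 0.30, adjusted p = 0.0044). The call was lost without KO c-di-GMP replicate 1 or 2 (adjusted p = 0.0512 and 0.0622). Under DMSO it differed by -1.11 ± 0.30 (adjusted p = 0.0614) and by -1.47 ± 0.20 without KO DMSO replicate 2 (adjusted p = 0.00182). ILMN_2454420, another Fas probe, was detected on 0 knockout arrays and was at least 2.48-fold lower under c-di-GMP (adjusted p = 0.0094). The last Fas probe, ILMN_2479290, passed under DMSO (-3.13 ± 0.76, adjusted p = 0.047) and fell short under c-di-GMP with all arrays (-2.68 ± 0.76, adjusted p = 0.0701), and it passed under both c-di-GMP (-2.68 ± 0.19, adjusted p = 6.1e-05) and DMSO (-1.80 ± 0.24, adjusted p = 0.00185) without KO DMSO replicate 2. On KO DMSO replicate 2, the 3 Fas probes disagreed: the tested probe read higher than on KO DMSO replicate 1 and the other probes lower.

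The Fas window is shown because it holds a gamma-activated sequence, the element bound by STAT factors, in capitals, 93 bases before the start (RefSeq, GRCm38.p6, plus strand). A Ripk1 window also held this motif, and the windows of Mlkl, Ripk3 and Daxx held none of the 4 motifs.
Fas, chr19:34290409-34290658: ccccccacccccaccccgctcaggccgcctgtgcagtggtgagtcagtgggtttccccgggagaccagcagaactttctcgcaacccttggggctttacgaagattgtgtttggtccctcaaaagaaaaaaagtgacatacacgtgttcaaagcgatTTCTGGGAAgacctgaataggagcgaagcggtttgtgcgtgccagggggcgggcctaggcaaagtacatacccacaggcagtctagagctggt

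Daxx encodes a histone chaperone of nuclear bodies. The Daxx probe read 8.07 and 7.94 in knockout cells given c-di-GMP, against 8.08 and 6.49 in those given DMSO. In wild-type cells it read 11.59 and 10.79 after c-di-GMP, against 9.20 and 9.03 after DMSO. The wild-type groups did not overlap, although their c-di-GMP arrays lay further apart than for any other of the 8 genes. The value of 6.49, on KO DMSO replicate 2, was not detected, and the knockout response was 0.72 ± 0.54 with that array and -0.07 ± 0.33 without it, neither of which passed. The wild-type difference was 2.08 ± 0.54, a 4.22-fold ratio, which did not pass with all arrays (adjusted p = 0.285) and passed without that array (2.08 ± 0.27, adjusted p = 0.00609). The difference of responses did not pass in either fit (-1.36 ± 0.76, adjusted p = 0.711; -2.15 ± 0.42, adjusted p = 0.0886).

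Under c-di-GMP, Daxx was 9.11-fold lower in knockout than in wild-type cells (-3.19 ± 0.54, adjusted p = 0.0104). The call was lost without WT c-di-GMP replicate 1 (adjusted p = 0.0951) and without KO c-di-GMP replicate 1 or 2 (adjusted p = 0.0836 and 0.0941). Under DMSO the difference was -1.83 ± 0.54 (adjusted p = 0.0734), or -1.04 ± 0.33 without KO DMSO replicate 2 (adjusted p = 0.0515).

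**Figure D4:**
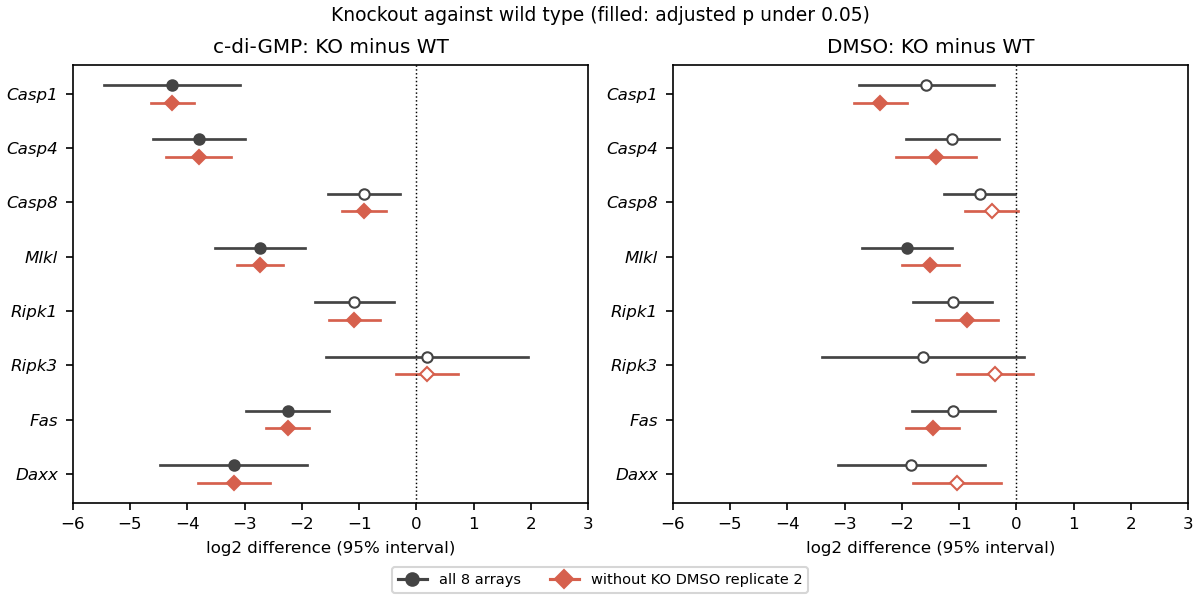
Log2 difference between knockout and wild-type cells under c-di-GMP (left) and under DMSO (right), with 95% intervals on the x axis and 1 row per gene. Symbols are as in the plot of the responses. Under c-di-GMP, 5 genes are filled on all arrays and lie between -4.26 and -2.25. Under DMSO, Mlkl alone is filled on all arrays. The knockout values of Casp1 are below detection, so its -4.26 is not a measured fold.

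Counted together, 0 of the 8 genes passed in the knockout response, as did 0% of all genes in limma, with 0 of the 8 and 254 genes at an unadjusted p under 0.05. None of the 8 had treatments that did not overlap there, against 18.7% of all genes higher and 15.2% lower. The median knockout difference was 0.13, beside 0.10 over all genes. The wild-type response gave 1 call, higher, with all arrays and 5 without KO DMSO replicate 2 (Casp1, Casp4, Mlkl, Fas and Daxx), where 3.89% of all genes were called higher and 1.97% lower. Both wild-type c-di-GMP arrays lay above both DMSO arrays in 6 of the 8 genes, against 20% of all genes, and below them in 1, Ripk3, against 29.5%. The median wild-type difference was 1.06 for the 8 genes and -0.06 for the 9554. The 8 genes were chosen with earlier results of these data known. Their counts and medians beside all genes, here and below, therefore describe them and test nothing.

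The difference of responses gave 0 of 8 calls with all arrays, where 0.0419% of all genes were called lower and 0% higher, and 3 of the 8 (Casp1, Casp4 and Fas) had an unadjusted p under 0.05. Leaving out KO DMSO replicate 2 gave 2 of 8, both lower, against 0.827% of all genes lower. Casp1 is among these, with a knockout side below detection. For the genes not yet given, the difference with all arrays was -0.28 ± 0.37 for Casp8, 0.03 ± 0.41 for Ripk1 and 1.82 ± 1.05 for Ripk3. The median was -0.98 for the 8 genes and 0.15 for all genes. Under median scaling the median of all genes moved to 1.17, and the differences of Casp8, Mlkl and Fas turned positive (1.12, 0.34 and 0.35), below that median. The wild-type response and the comparison of genotypes under c-di-GMP share the wild-type c-di-GMP arrays, so their counts are not separate evidence.

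Between genotypes under c-di-GMP, 5 of 8 genes were called lower in knockout cells with all arrays and 0 higher, against 8.13% and 5.84% of all genes. Casp1, 1 of the 5, passed the detection filter through wild-type arrays alone. KO DMSO replicate 2 left out, 7 of 8 were lower, every gene but Ripk3, against 20.7% of all genes lower and 23.8% higher. The knockout arrays all lay below the wild-type arrays in 7 of 8, against 32.2% of all genes (40.1% lay above), and the median was -2.49, beside 0.10 for all genes. Under DMSO, 1 of 8 was called lower, against 7.47% of all genes lower and 5.22% higher, and 5 of 8 without KO DMSO replicate 2 (Casp1, Casp4, Mlkl, Ripk1 and Fas), against 14.1% lower and 14% higher. The groups did not overlap in 8 of 8, all lower in the knockout, against 29.6% of all genes lower and 25% higher. The median was -1.35, beside -0.11. Casp1 was not detected on either KO DMSO array, nor were Casp4, Ripk3 and Daxx on KO DMSO replicate 2. Without that array the DMSO median was -1.22, beside 0.05 for all genes, with Ripk3 at -0.37 and Casp8 at -0.44. Over every detected probe, 7.15% were called lower and 4.72% higher under c-di-GMP, and 6.43% lower and 4.17% higher under DMSO, and in the difference of responses 0.00768% were lower.

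In the same comparisons, leukocyte markers were also lower in knockout cells. Of the 13 tested, 7 were called lower under c-di-GMP and 6 under DMSO (median log2 differences -2.47 and -2.25), and 10 and 8 without KO DMSO replicate 2, where 1 more was called higher in each comparison. In the wild-type response, 0 of these 13 passed, with a median of -0.25. Their part in the lower readings of the 8 genes in knockout cells was not tested.

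Partners of the 8 genes in the same pathways were read from 6 lists. In the wild-type response with all arrays, 2 of 19 partners of the TNF receptor complex and necroptosis passed (median 0.12). Tlr3, the endosomal receptor of double-stranded RNA that signals through TRIF, rose by 2.62 ± 0.30 (adjusted p = 0.0253). Tnfaip3, which encodes the ubiquitin-editing enzyme A20 of the NF-kB pathway, rose by 2.12 ± 0.28 (adjusted p = 0.0383). Neither call held under median scaling, nor when any single wild-type array was left out. The other 5 lists had 0 calls each: 9 tested genes of inflammasomes and pyroptosis (median 0.67), 10 death receptors and ligands (0.23), 15 apoptotic caspases and regulators (0.14), 13 BCL2 family genes (0.01) and 15 Daxx partners and nuclear body genes (0.03). In the knockout response 0 genes of the 6 lists passed.

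Several caspase targets and pathway partners passed in wild-type cells only after KO DMSO replicate 2 was left out. Gsdmd, the gasdermin gene, differed by 1.13 ± 0.28 with all arrays (adjusted p = 0.258; 0.0169 without that array). Bid, a BCL2 protein gene whose product caspase-8 cuts, differed by 1.21 ± 0.31 (adjusted p = 0.273; 0.0137). Pml, the scaffold gene of the nuclear bodies that hold Daxx, differed by 0.89 ± 0.42 (adjusted p = 0.854; 0.0242). Casp9, the initiator caspase gene of the mitochondrial route, was the one called lower (-1.10 ± 0.36, adjusted p = 0.467; 0.0363). List medians of the wild-type response, beside -0.06 for all genes, cannot change in that fit, because the array left out is not a wild-type array. Further genes of the lists, named outside the naming rule after their values were seen, read higher with c-di-GMP and did not pass with all arrays. Being picked for their rise, they tell nothing about the lists as a whole. Il18, a cytokine gene whose product caspase-1 matures, was higher by at least 1.78-fold. Zbp1, a nucleic acid sensor gene that engages RIPK3, had a log2 difference of 1.18. Tnfsf10, the gene of the death ligand TRAIL, was higher by at least 1.38-fold.

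The largest remaining wild-type differences in the lists, by the naming rule, did not pass in either fit. They were those of Pstpip1, a pyrin-binding adaptor gene (0.73 ± 0.40), the TRAIL receptor gene Tnfrsf10b (0.96 ± 0.35), the lymphotoxin receptor gene Ltbr (0.24 ± 0.37), Bok (-0.61 ± 0.24), Mcl1 (-0.58 ± 0.36) and the p53 ligase gene Mdm2 (-0.54 ± 0.30).

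**Figure D5:**
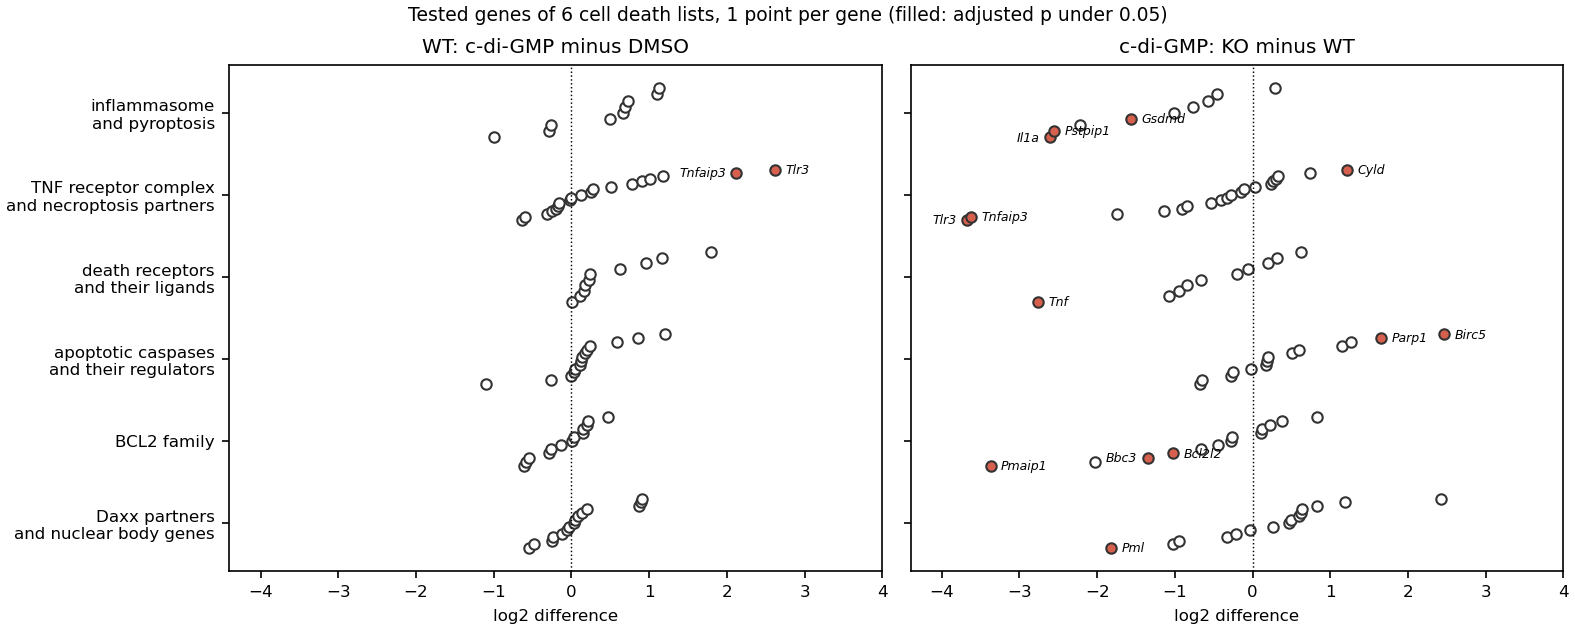
Log2 difference (x axis) of tested genes of the 6 lists, 1 point per gene, for the wild-type response to c-di-GMP (left) and for knockout against wild type under c-di-GMP (right). Filled points have an adjusted p under 0.05 on all 8 arrays and are named. Tlr3 and Tnfaip3 are filled on both sides; Birc5, Parp1 and Cyld are the filled points above 0 on the right.

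Between genotypes under c-di-GMP, the lists held calls in both directions. Of inflammasome genes, 3 of 9 were lower in knockout cells: Il1a, an alarmin cytokine gene, by at least 3.89-fold, Pstpip1 (-2.55 ± 0.40) and Gsdmd (-1.56 ± 0.28), with a list median of -1.02. Of the TNF complex list, Tnfaip3 (-3.63 ± 0.28) and Tlr3 (at least 9.50-fold) were lower and Cyld, a deubiquitinase gene that acts on RIPK1, was higher (1.22 ± 0.31), of 19 (median -0.28). Of death receptors and ligands, Tnf was lower by at least 4.83-fold, the only call of 10 (median -0.43), and Tnfrsf10b differed by -1.08 ± 0.35 (adjusted p = 0.0974). These calls, like those of the 8 genes, stood beside the leukocyte markers given above.

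Among apoptotic regulators, 2 of 15 were called higher in knockout cells (median 0.19). Birc5, which encodes survivin, was higher by 2.46 ± 0.36, and Parp1, a DNA repair enzyme gene whose product caspases cleave, by 1.66 ± 0.36. In the BCL2 family, 3 of 13 were lower (median -0.27): Pmaip1, which encodes the death-promoting NOXA, by at least 7.74-fold, Bbc3, which encodes PUMA (-1.35 ± 0.27), and the survival gene Bcl2l2 (-1.02 ± 0.26). Of the Daxx partners, Pml was lower (-1.82 ± 0.42), the only call of 15 (median 0.47), and the histone chaperone gene Asf1b differed by 2.42 ± 0.68 (adjusted p = 0.0622). The fit without KO DMSO replicate 2 also called Asf1b (adjusted p = 0.000327) and Tnfrsf10b (adjusted p = 0.0139). List medians between genotypes under c-di-GMP, beside 0.10 for all genes, cannot change in this fit, because the array left out belongs to neither group compared.

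Under DMSO, several of these genes were called again in the knockout cells. Il1a was lower by at least 1.19-fold, Tnfaip3 by -1.47 ± 0.28, Pmaip1 by at least 4.49-fold, Bbc3 by -1.30 ± 0.27 and Bcl2l2 by -1.11 ± 0.26. Cyld (1.45 ± 0.31), Birc5 (3.02 ± 0.36) and Parp1 (1.86 ± 0.36) were higher. Further calls under DMSO were Txnip, a gene of an NLRP3-binding redox protein (-3.51 ± 0.81), Ikbkg, the NEMO gene (-2.64 ± 0.67), the decoy receptor gene Tnfrsf22 (-1.40 ± 0.33) and Casp2 (1.3 ± 0.27). In the difference of responses, which compares the genotype gap between treatments, 0 genes of the 6 lists passed with all arrays. In the same DMSO comparison of genotypes, Pml (-1.35 ± 0.42), Sumo2 (-1.0 ± 0.88) and Tnfrsf12a (0.70 ± 0.42) did not pass with all arrays. Leaving out KO DMSO replicate 2 moved Txnip to -2.10, Ikbkg to -1.49, Tnfrsf12a to 0.12 and Pml to -0.71, which then passed (adjusted p = 0.0367), and turned Sumo2 to 0.52. In that fit the DMSO list medians were -0.52 for inflammasome genes, -0.14 for the TNF complex list and 0.06 for death receptors and ligands. They were 0.42 for apoptotic regulators, -0.71 for the BCL2 family and 0.38 for Daxx partners, beside 0.05 for all genes.

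Genes whose intensity followed the called members most closely over the 8 arrays were named by the highest Pearson correlation, as a description of arrays that share genotype and treatment. For Casp1 these were Fas (r = 0.992), Irf7 (r = 0.992) and Nub1 (r = 0.990). For Casp4 they were Phf11 (r = 0.995), Tlr3 (r = 0.994) and Psmb9 (r = 0.992), which were detected on 0 knockout arrays. Mlkl was followed by Nod1, Ccl7 and Tmem80 (r = 0.991 to 0.997), and Fas by Ifi205, Antxr1 and BC006779 (r = 0.993 to 0.994). Daxx was followed by Tnip1, Aida and Trim56 (r = 0.991 to 0.995). Irf7, Tmem80 and Ifi205 were also detected on 0 knockout arrays, as was Casp1 itself. Over the 7 arrays without KO DMSO replicate 2 these correlations were between 0.987 and 0.999.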

How the data were processed

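Total RNA of 8 samples was measured on single-colour Illumina arrays. The deposited files are a table of raw probe intensity from GenomeStudio 2010.2 (per the submitters' processing notes), with a detection p-value beside each signal per the file headers, and the authors' normalized intensity on a linear scale, made by a method that no label states. Gene names were updated through the RefSeq gene table of GRCm38.p6. Of the 25697 probes, 20733 matched a current symbol, 122 a gene number and 3872 a synonym, 939 kept the file's name and 31 carried a date in its place.

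Raw signals went through neqc (limma 3.58.1, R 4.3.3), which corrects background by normexp with an offset of 16, normalizes by quantiles and takes log2. The filter on detection kept 13026 probes, and a gene was tested by its probe of highest mean (9554 genes). The limma model had 1 mean per group with all 8 arrays sharing 1 spread, two-sided tests, and Benjamini-Hochberg adjustment over all genes of a comparison with a threshold of 0.05. Errors beside log2 differences are SEs from that model, with 2 arrays per group. The fits were tested on simulated data, where mean estimates had to come near planted differences. The simulated noise was independent, with the same spread of a gene on every array. No weak array was simulated, so that test does not cover the calls given here. The number of arrays limits the precision, and so does the weak array: without it the median SE over all genes of the wild-type response was 0.198, against 0.376 with it. The deviations of same-numbered arrays correlated at -0.026 to 0.064 between groups, so no shared deviation was seen. With 2 arrays per group this cannot tell whether same-numbered samples were handled together. The alternatives were median scaling, the authors' normalized table, other detection filters, array weights, every probe on its own, fits on the compared arrays alone, a replicate block and each array left out.

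The genes followed, the 6 pathway lists and the marker lists were chosen with earlier results of these data known. Per list and comparison, up to 4 genes that passed were named by smallest adjusted p. Where fewer than 2 passed, the genes of largest difference among those detected on every array of both groups filled up to 2, in the wild-type response and both comparisons of genotypes. For each called member, the 3 genes of highest correlation were named. A gene of the lists is not reported here, in the text or in the plot of the lists, and stays in the counts.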

Additional observations from a re-analysis of the deposited data

How the results depend on the processing

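The 5 comparisons are given in the order knockout response, wild-type response, difference of responses, and knockout against wild type under c-di-GMP and under DMSO. With all arrays they called 0, 57, 4, 1335 and 1213 genes, of them 0, 1, 0, 5 and 1 of the 8. Median scaling, which moved the median of all genes to 0.93, -0.24, 1.17, 0.46 and -0.62, called 0, 0, 0, 147 and 95 genes, and 0, 0, 0, 1 and 0 of the 8; under c-di-GMP Casp1 remained, while Casp4, Mlkl, Fas and Daxx had adjusted p of 0.0724, 0.432, 0.471 and 0.289. It also turned the wild-type response of Ripk1 to -0.24, the knockout responses of Casp4 and Fas to 0.52 and 0.97, and the differences of responses of Casp8, Mlkl and Fas to 1.12, 0.34 and 0.35. The authors' normalized table called 0, 86, 15, 1479 and 1389 genes (0, 1, 0, 7 and 3 of the 8), no detection filter 0, 54, 3, 1281 and 1098 (0, 0, 0, 6 and 1), and detection on at least 4 arrays 0, 34, 0, 1266 and 1239 (0, 0, 0, 5 and 2). Array weights, which gave both KO DMSO arrays 0.109, called 0, 492, 1, 4024 and 274 (0, 5, 0, 7 and 0). Fits on the compared arrays alone called 0, 272, 3929 and 104 genes in the comparisons other than the difference (0, 4, 7 and 0), and every probe on its own called 0, 1, 0, 5 and 3 of the 8.

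The replicate block called 0, 12, 0, 1068 and 940 genes (0, 0, 0, 5 and 1 of the 8). In it the wild-type response of Casp4 did not pass (adjusted p = 0.111).

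Leaving out each array in turn called 0 to 5487, 0 to 560, 0 to 4636, 372 to 4244 and 270 to 6129 genes, and 0 to 5, 0 to 5, 0 to 4, 3 to 7 and 0 to 8 of the 8. The upper ends of the knockout response, the difference and the DMSO comparison come from leaving out KO DMSO replicate 1, which keeps the weak array as the group; leaving out replicate 2 instead gave 0, 83 and 2683 genes. Normalized without KO DMSO replicate 2 as well, an alternative chosen after seeing the data, the fits called 0, 527, 48, 4190 and 2629 genes (0, 5, 1, 7 and 5). Over these fits, knockout responses ran from -0.57 to 0.0091 for Casp4, -0.025 to 0.38 for Casp8, -0.17 to 0.33 for Ripk1, -0.33 to 2.19 for Ripk3, -0.71 to 0.0043 for Fas and -0.072 to 1.52 for Daxx. Ripk1 ran from -0.17 to 0.26 in the wild-type response and from -0.22 to 0.28 in the difference, and Ripk3 from -0.13 to 0.51 between genotypes under c-di-GMP. The cause of these changes was not tested. With 2 arrays per group, 1 array can decide a call, and signals near background, such as Casp1 in knockout cells, carry only bounds.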
